A study of Rattus norvegicus with 4 samples.

Results

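Monocytes and macrophages other than Kupffer cells were compared across 4 livers of Lewis rats, with 1 single-cell RNA library per liver group. The NEVLPcty liver was perfused outside the body for 4 h at 37 °C with IL-10 and TGF-β in the circuit. The NEVLP2 liver was perfused for the same time at the same temperature without those cytokines. The CS liver was kept cold for 4 h at 4 °C, and the naive liver had no preservation step. Both perfused livers received a circuit fluid based on William's E medium, with Lewis rat red cells depleted of leukocytes, penicillin and streptomycin, pyruvate, glutamine, albumin of human origin, insulin, hydrocortisone, papaverine and heparin. No engineered allele is named for any group, and age, sex and the way cells were freed from the tissue are not given in the sources used here. With 1 library per group, a difference between groups cannot be told apart from a difference between animals or preparations, so no test was made between libraries and each interval below is a 95% interval that covers counting error only.

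Of 35901 cells retained in the 4 libraries, 969 were members. They numbered 257 of 11616 retained cells in NEVLPcty, 222 of 10186 in NEVLP2, 183 of 10798 in CS and 307 of 3301 in naive. A retained cell had at least 200 genes, at least 500 UMIs (unique molecular identifiers, each standing for 1 captured mRNA molecule) and at most 20% of its UMIs from mitochondrial genes. Members were chosen by their own measured counts of 11 genes, which are therefore described below and support nothing. A member had at least 1 UMI of Csf1r (the receptor for macrophage colony-stimulating factor), at least 5 UMIs of Lyz2 (lysozyme) and at least 1 UMI of Cx3cr1 or Itgam. It had 0 UMIs of the Kupffer cell genes Clec4f, Vsig4 and Cd5l, of the dendritic cell genes Clec9a and Xcr1, of the B cell gene Cd79a and of the T cell gene Cd3e. The chemokine receptor gene Ccr2, named in the rule as an alternative to Cx3cr1 and Itgam, was not analysed here, so a cell that would enter through Ccr2 alone could not be a member, which limits how far classical monocytes are covered.

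Monocytes are short-lived blood phagocytes made in the bone marrow, and they can leave the circulation and become macrophages in tissue. Classical monocytes are drawn by chemokines such as CCL2 to injured tissue, whereas non-classical monocytes patrol the vessel wall and carry the fractalkine receptor CX3CR1. Kupffer cells are the self-renewing resident macrophages of the liver sinusoids, and the liver also holds other macrophages, for instance in its capsule and around portal tracts. When such cells sense damage they activate NF-kB and secrete chemokines and IL-1, and haem or oxidants switch on NRF2 and genes such as Hmox1. IL-10 acts on macrophages through STAT3 to restrain inflammatory genes, and TGF-β acts through SMAD proteins, with SMAD7, SKIL and PMEPA1 among its known feedback inhibitors.

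Members made up 2.21% (1.95 to 2.5) of retained cells in NEVLPcty, 2.18% (1.9 to 2.48) in NEVLP2, 1.69% (1.46 to 1.96) in CS and 9.3% (8.33 to 10.3) in naive. Among cells with a UMI of Ptprc, the pan-leukocyte gene CD45, they were 12.6%, 6.39%, 6.03% and 20% in the same order of libraries. The naive share was the highest on either denominator, and among retained cells its interval did not overlap those of the other 3 libraries. The gate asks for minimum counts, so it depends on depth: retained cells had a median of 5347 UMIs in NEVLPcty, 3722 in NEVLP2, 4651 in CS and 3915 in naive. Retained cells with at least 2000 UMIs numbered 9512, 6616, 7766 and 2212 in the same order, and the rest were left out. When each of these cells was thinned to 2000 before gating, 24, 14, 67 and 78 passed, which were 0.252%, 0.212%, 0.863% and 3.53%. Naive remained the highest and CS then lay above both perfused livers, an order between CS and the perfused livers that all UMIs did not give. Thinning also loosened the conditions of 0 UMIs, so cells with a Kupffer cell gene at full depth could pass. Cells that met the minimum counts at full depth but held Clec4f, Vsig4 or Cd5l numbered 100, 127, 256 and 53 in the same order. How many of these passed after thinning was not counted.

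**Figure D1:**
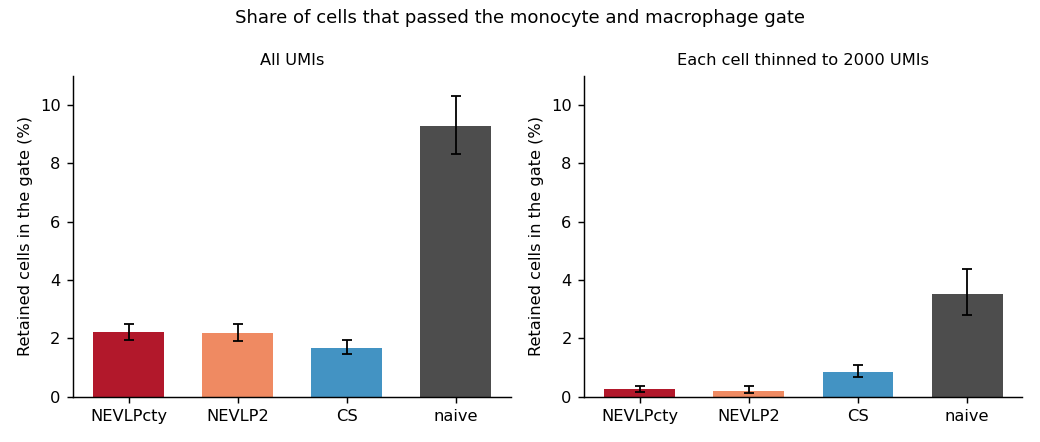
Share of cells that passed the monocyte and macrophage gate in each library (y axis, percent). The left panel uses all UMIs of all retained cells. The right panel uses only retained cells with at least 2000 UMIs, each thinned to 2000. Bars are single libraries and error bars exact binomial 95% intervals; naive is the highest in both panels, at 9.3% and 3.53%.

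Members were deep cells, with medians of 16272 UMIs in NEVLPcty, 14347 in NEVLP2, 11474 in CS and 10951 in naive, and together they held 4104414, 3425422, 2399108 and 4228863 UMIs. Levels below are the summed counts of a gene over the members of a library per 1000000 of those members' UMIs (CPM), and 3 counts, taken as the limit for a gene at 0, correspond to 0.731, 0.876, 1.25 and 0.709 CPM. Across library pairs, 117 barcodes were shared among retained cells, and 1 of these was a member in both NEVLP2 and naive. Scrublet, a caller of droplets that hold 2 cells, called 0 of 11616 retained cells in NEVLPcty and so did not work there; members were kept without it, and its highest scores were removed only as an alternative.

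Itgam, the integrin chain CD11b, and Cx3cr1 let members into the gate in different proportions. Cx3cr1 alone did so for 74 members in NEVLPcty, 7 in NEVLP2, 69 in CS and 141 in naive, and Itgam alone for 147, 214, 73 and 106. Cx3cr1 stood at 46.8 CPM in NEVLPcty, 3.5 in NEVLP2, 83.8 in CS and 70 in naive, so NEVLP2 was the lowest library by more than 10-fold. Itgam differed less, at 68, 92.3, 81.7 and 71.2 CPM in the same order. Csf1r was at 368 CPM in NEVLPcty, 216 in NEVLP2, 734 in CS and 901 in naive. Lyz2 was at 4072.7, 4747.7, 7948.4 and 13838.9 CPM, and both genes were thus higher in the 2 unperfused livers. Near the Lyz2 limit, 3, 2, 0 and 0 members had exactly 5 UMIs, and 2, 7, 1 and 0 cells missed the gate with exactly 4. Cells that failed only for want of a Cx3cr1 or Itgam UMI numbered 187, 332, 103 and 193, and those that failed only for want of Csf1r 48, 95, 5 and 6.

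The label of the cells was set against marker lists of cell types. The 6 Kupffer cell list genes measured outside the gate summed to 7443.9 CPM in NEVLPcty members, 9766.7 in NEVLP2, 755.7 in CS and 450.0 in naive, of which Hmox1, described below and found in many cells of the perfused livers, made up 7135.2, 9393.3, 184 and 113 CPM. Marco, a scavenger receptor, was at 2.19 CPM in NEVLPcty members, 1.17 in NEVLP2, 2.5 in CS and 0.709 in naive. In Kupffer-gated cells, defined by a Csf1r UMI and at least 2 UMIs of Clec4f, Vsig4 and Cd5l together, Marco was at 267, 211, 521 and 171 CPM. Cd163, the haemoglobin scavenger receptor, was at 0.487, 5.25, 5.84 and 12.5 CPM in members, against 333, 629, 536 and 339 CPM in Kupffer-gated cells. Non-classical monocyte genes outside the gate summed to 1328.3, 1060.6, 1912.8 and 2754.9 CPM, with Ace at 0 in all 4 libraries. Classical monocyte genes summed to 546.0, 3076.7, 891.6 and 1165.3 CPM, with Chil3 at 0 in all 4, and S100a8, a classical monocyte and neutrophil calgranulin, was at 0 in NEVLPcty members, 18.1 CPM in NEVLP2, 1.25 in CS and 90.6 in naive. Macrophage genes summed to 5029.2, 3621.5, 9138.4 and 3495.3 CPM. Other Kupffer cell list genes were present in members. Id3 had 1816 counts in NEVLP2 and CS together, and Nr1h3 764 in NEVLPcty and NEVLP2 together. Over the list without Hmox1 and the gate genes, the median per 10000 UMIs of a cell was 12.3 to 30.6 in Kupffer-gated cells. In the 2 parts of the members described below it was 0.573 to 3.95. The members thus carried monocyte and macrophage genes in all 4 libraries and little Marco or Cd163. In the libraries named for them, Id3 and Nr1h3 were far more abundant in members than Marco or Cd163. Both are Kupffer cell list genes that did not follow the low levels of Marco and Cd163, and their levels in Kupffer-gated cells are not given here. The balance of the lists differed between libraries.

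Other cell types were traced in the members as well. At least 2 UMIs over the 7 neutrophil genes used were found in 7 members of NEVLPcty, 61 of NEVLP2, 13 of CS and 62 of naive. A UMI of the dendritic cell genes Flt3, Zbtb46 or Ccr7 was found in 44, 9, 38 and 40. Hepatocyte genes summed to 477.3, 917.3, 878.2 and 1202.5 CPM in members, against 7315.7, 12603.4, 9701.4 and 33537.9 CPM in all other cells. Endothelial genes summed to 338.4, 189.5, 470.6 and 120.4 CPM, and haemoglobin and other erythroid genes to 27.0, 9.93, 51.3 and 2291.4 CPM. The naive members thus held the most erythroid RNA and the CS members the most endothelial RNA, and these values stand beside the genes they touch below.

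Within each library some members were rich in C1q and most were nearly free of it. C1qa, C1qb and C1qc encode the chains of the complement starter C1q, which tissue macrophages make. With the divide at 10 C1q UMIs per 10000, a value set after seeing the data, 62 of 257 members were C1q-rich in NEVLPcty, 21 of 222 in NEVLP2, 60 of 183 in CS and 26 of 307 in naive. These were 24.1% (19.0 to 29.8), 9.46% (5.95 to 14.1), 32.8% (26.0 to 40.1) and 8.47% (5.61 to 12.2), so NEVLPcty and CS had a larger C1q-rich part than NEVLP2 and naive. Between 5 and 20 UMIs per 10000 lay 3, 9, 7 and 3 cells. The median C1q level was 137, 101.5, 192.1 and 167.2 per 10000 in C1q-rich members and at most 1.08 in C1q-poor members, against 251.6, 231.7, 407.5 and 284.4 in Kupffer-gated cells. C1q-rich cells also held other genes in common, and their share therefore stands beside the results it moves with.

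**Figure D2:**
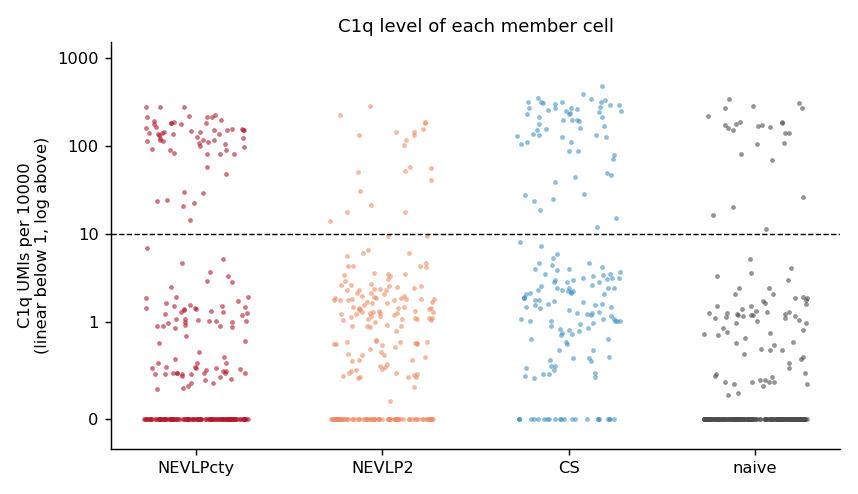
C1q level of each member cell, as UMIs of C1qa, C1qb and C1qc per 10000 UMIs of the cell (y axis, linear below 1 and logarithmic above), by library. Each point is 1 cell and the dashed line is the divide at 10. In all 4 libraries most cells lie below 10 and a smaller set lies above, mostly near 100 or higher except in NEVLP2. In both NEVLP2 and CS the cells spread across the divide with no clear gap.

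Some genes set the C1q-rich members apart in all 4 libraries, and the genes described here were picked for that. Genes apart in fewer libraries were not counted, so how much of the difference was shared is not known. Of 5899 genes compared within each library, 1.02% were at least 2-fold higher in C1q-rich than in C1q-poor members in 4 of 4 libraries and 1.76% at least 2-fold lower; the C1q genes define the parts, and genes that accompany them in the same cells are described without a test. Ms4a7, a membrane protein gene of tissue macrophages, was at 114 CPM in C1q-rich against 2.56 CPM in C1q-poor members of NEVLPcty, 349 against 11.4 in NEVLP2, 298 against 2.5 in CS and 256 against 4.58 in naive. Folr2, a folate receptor of resident macrophages, was at 162 against 8.96 CPM in NEVLPcty, 156 against 25.1 in NEVLP2, 521 against 24.4 in CS and 518 against 15.4 in naive. Pf4, the chemokine platelet factor 4, was at 63.3 against 3.84, 200 against 17.1, 193 against 4.38 and 541 against 2.7 CPM in that order of libraries, and the platelet genes Ppbp and Gp9 were at 0 in all 4. Each of these 3 genes separated the parts in every library, and the chemokine gene Cxcl2 did so as well, at 4029.3 against 873, 5842.0 against 1864.7, 3347.6 against 386 and 2794.0 against 407 CPM. Mmp12, the macrophage elastase, was at 1432.6 against 164, 1434.7 against 317, 811 against 20.6 and 337 against 46.1 CPM.

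C1q-poor members held other genes. G0s2, an inhibitor of fat breakdown, was at 100 CPM in C1q-rich against 2202.8 CPM in C1q-poor members of NEVLPcty, 569 against 3551.1 in NEVLP2, 6.25 against 497 in CS and 3.85 against 1416.4 in naive. Chi3l1, a chitinase-like secreted protein, was at 6.13 against 244, 68.9 against 1788.4, 48.8 against 298 and 5.78 against 439 CPM in that order. S100a11, a calcium-binding protein gene, was at 188 against 870, 82.6 against 414, 234 against 1215.7 and 437 against 1711.3 CPM. Fpr2, a receptor for formylated peptides, was at 0 CPM in C1q-rich members of NEVLPcty and NEVLP2, against 33.9 and 37.8 CPM in their C1q-poor members, and at 1.25 against 41.3 CPM in CS and 1.93 against 74.9 CPM in naive. Cx3cr1 was found on both sides of this divide: 72.6%, 4.76%, 78.3% and 69.2% of C1q-rich members and 33.3%, 3.48%, 51.2% and 65.1% of C1q-poor members had a UMI of it at full depth, with NEVLP2 low in both parts. Median UMIs were 14828, 21634, 13084 and 17285.5 in C1q-rich and 17443, 13280, 10772 and 10383 in C1q-poor members. Thinned to 2000 UMIs, 8.95%, 2.26%, 21.4% and 19.9% of members had a Cx3cr1 UMI, against 0%, 0.256%, 0% and 0% of hepatocyte-gated cells. Hepatocyte-gated cells are shown here and below as cells that should lack monocyte genes; 235 of 566, 391 of 1220, 503 of 1190 and 587 of 1217 of them reached 2000 UMIs, and the rest were left out, as were 0, 1, 1 and 0 members.

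**Figure D3:**
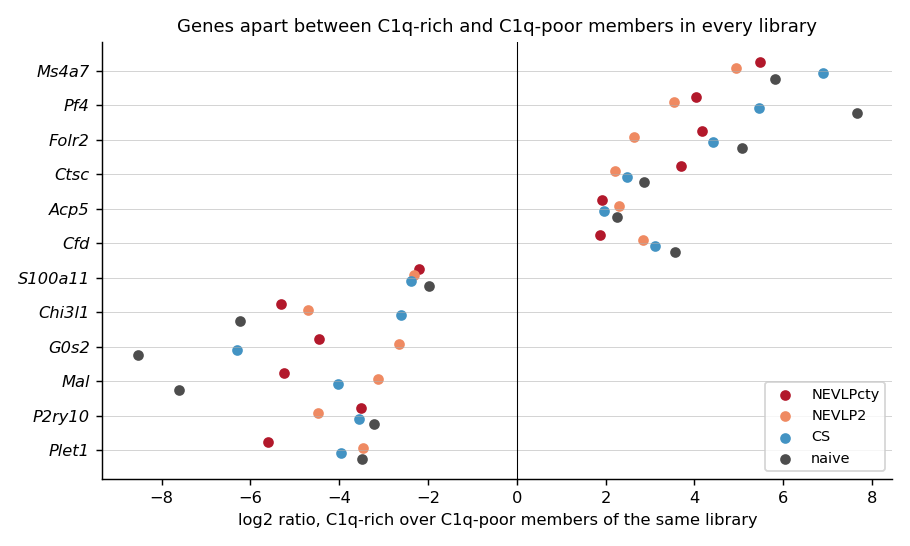
Log2 ratio of CPM in C1q-rich over C1q-poor members of the same library (x axis) for 12 genes (y axis). Each point is 1 library. The 6 upper genes lie above 0 and the 6 lower genes below 0 in all 4 libraries, which follows from how they were picked.

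NEVLPcty was compared with NEVLP2, the liver perfused without the 2 cytokines. Neither group was replicated, so an effect of the cytokines cannot be told apart here from a difference between animals or preparations. Members of NEVLPcty held less mRNA of CC chemokines, of the IL-1 receptor antagonist and of the nitric oxide and itaconate enzymes, and more of MHC class II and of several TGF-β feedback genes. Of 8281 genes with at least 20 counts in both libraries together, 13.5% were at least 2-fold higher and 7.05% at least 2-fold lower in NEVLPcty, with a median log2 ratio of 0.12. Scaled with median-ratio size factors in place of UMI totals, these shares were 10.1% and 9.67%, so the excess of higher genes rests on the scaling, which moved every log2 ratio by -0.18. List medians below are therefore given relative to the median of all genes measured in the same comparison.

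CC chemokines, which draw monocytes, T cells and other leukocytes, were lower as a group: 10 of 11 were at least 2-fold lower in NEVLPcty and 0 higher, with a median of -2.05 (log2) relative to all genes. Ccl2, the main monocyte attractant, was at 1249.9 CPM in NEVLPcty, 6092.4 in NEVLP2, 527 in CS and 285 in naive, and so 4.87-fold lower (4.73 to 5.03) in NEVLPcty than in NEVLP2. Ccl4, a chemokine that draws monocytes and T cells, was at 449, 6477.7, 196 and 250 CPM, which was 14.4-fold lower (13.8 to 15.1). Ccl7, another monocyte attractant, was at 101, 1779.1, 24.2 and 42.1 CPM, 17.7-fold lower (16 to 19.6). NEVLP2 held the highest level of each of these 3 genes, and NEVLPcty lay between it and the 2 unperfused livers. Ccl3, of the same family, was at 1430.4, 6885.9, 346 and 1493.3 CPM, so that NEVLPcty was 4.81-fold lower (4.68 to 4.95) than NEVLP2 and close to naive. Ccl12 was at 48.5 CPM in NEVLPcty and 1255 in NEVLP2, and it rested on few cells, with a UMI in 5.45% and 17.6% of members. In Kupffer-gated cells, Ccl2, Ccl4 and Ccl7 were 2.29-, 6.66- and 6.31-fold lower in NEVLPcty than in NEVLP2; whether the size differed between the cell types was not tested. All other retained cells held 4749.6 CPM of Ccl2 in NEVLPcty and 6975.4 CPM in NEVLP2, and with cells thinned to 2000 UMIs a UMI of it was in 34.6% and 55.7% of members, against 29.4% and 41.7% of hepatocyte-gated cells; the part of RNA from other cells in the member signal was not tested.

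Monocyte lists moved with these chemokines between NEVLPcty and NEVLP2. Classical monocyte genes were at least 2-fold lower in NEVLPcty for 7 of 7 measured, with a median of -3.75 relative to all genes, and also for 7 of 7 in C1q-poor members. Vcan, a proteoglycan of classical monocytes, was at 39.2 CPM in NEVLPcty and 631 in NEVLP2, 16.1-fold lower (13.7 to 19), and Fn1, fibronectin, at 43.1 and 291 CPM, 6.75-fold lower (5.75 to 7.96). Non-classical monocyte genes were at least 2-fold higher for 5 of 8 and lower for 0, with a median of 1.06 relative to all genes; with size factors 4 were higher and 1 lower. Alternative activation genes were lower for 7 of 10 and higher for 0, with a median of -2.41 relative to all genes, whereas in Kupffer-gated cells 1 of 11 was lower and 1 higher. The part of these monocyte lists in the other differences between NEVLPcty and NEVLP2 members was not tested.

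CXC chemokines were mixed, with 4 of 7 at least 2-fold lower, 1 higher and a median of -1.78 relative to all genes. Cxcl16, a membrane-bound chemokine that binds CXCR6 on T and NKT cells, was the gene that was higher, at 1661.4 CPM in NEVLPcty, 624 in NEVLP2, 344 in CS and 316 in naive, a ratio of 2.66 (2.54 to 2.8). Cxcl10, a T cell attractant, was at 29.2 CPM in NEVLPcty, 293 in NEVLP2, 27.5 in CS and 110 in naive, 10-fold lower (8.29 to 12.2) in NEVLPcty than in NEVLP2. Cxcl16 and Cxcl10 thus stood on opposite sides within 1 family. Type I interferon genes, an antiviral group, had 10 of 19 at least 2-fold lower and 0 higher, with a median of -1.21 relative to all genes. Isg15, a ubiquitin-like protein, was at 49.2, 175, 135 and 95.8 CPM and Ifit3 at 75.8, 185, 131 and 105 CPM in NEVLPcty, NEVLP2, CS and naive, and both were lowest in NEVLPcty.

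Inflammatory cytokines lay on both sides: 4 of 11 were at least 2-fold lower and 2 higher, with a median of -0.58 relative to all genes. Il1b, the precursor of IL-1β, was at 3501.4 CPM in NEVLPcty, 2523.2 in NEVLP2, 352 in CS and 236 in naive, a ratio of 1.39 (1.35 to 1.43) that stayed under 2-fold. In Kupffer-gated cells Il1b was at 1608.2, 4051.6, 408 and 443 CPM, so NEVLPcty was above NEVLP2 in members and below it in Kupffer-gated cells; this difference was not tested. Il1rn, which encodes the IL-1 receptor antagonist, was at 644 CPM in NEVLPcty members, 2336.1 in NEVLP2, 131 in CS and 180 in naive, 3.63-fold lower (3.47 to 3.79) in NEVLPcty than in NEVLP2. The decoy receptor gene Il1r2 was higher in NEVLPcty, at 234 CPM against 30.1 in NEVLP2, 28.3 in CS and 6.62 in naive, a ratio of 7.79 (6.36 to 9.65). Il1a, the other IL-1 agonist, was at 19.5, 47.9, 2.08 and 0.946 CPM, 2.46-fold lower (1.87 to 3.25) in NEVLPcty than in NEVLP2, so the IL-1 genes lay on both sides. Il18 was at 76.7, 23.4, 133 and 66.9 CPM, and Vegfa, the vascular growth factor, at 277, 64.5, 11.7 and 10.6 CPM, 4.29-fold higher (3.71 to 4.98) in NEVLPcty than in NEVLP2. Tnf was at 0 in the members of all 4 libraries.

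Activation genes lay on both sides in NEVLPcty, with 3 of 12 costimulation and checkpoint genes at least 2-fold higher and 3 lower. Nos2, the inducible nitric oxide synthase, was at 16.1 CPM in NEVLPcty, 368 in NEVLP2, 1.25 in CS and 1.18 in naive, 22.9-fold lower (17.9 to 29.8) in NEVLPcty than in NEVLP2. A Nos2 UMI was found in 5.84% of NEVLPcty and 48.2% of NEVLP2 members at full depth, and with cells thinned to 2000 UMIs in 3.11% and 32.1% of members, against 0% and 0.767% of hepatocyte-gated cells. Acod1, which makes itaconate, was at 58.5, 610, 7.09 and 10.9 CPM, 10.4-fold lower (9.12 to 12). Both enzymes were thus near absent in the unperfused livers, abundant in NEVLP2 and between these in NEVLPcty. Cd14, the lipopolysaccharide co-receptor, was at 453 CPM in NEVLPcty, 2018.1 in NEVLP2, 133 in CS and 107 in naive, and Sod2, a mitochondrial superoxide dismutase under NF-kB, at 2843.8, 9210.8, 479 and 691 CPM. Both were past 2-fold, at 4.46 (4.23 to 4.69) and 3.24 (3.17 to 3.31) times lower in NEVLPcty, whereas the NF-kB list as a whole had 4 of 20 genes lower and 1 higher, with a median of -0.38 relative to all genes. Cd274, the checkpoint ligand PD-L1, was 3.25-fold lower (2.97 to 3.57), at 154 CPM against 502, and Havcr2, which encodes TIM-3, was 4.97-fold higher (4.19 to 5.91), at 230 CPM against 46.4. Gpnmb, a lysosomal glycoprotein of scar-associated macrophages, was at 245 against 1475.4 CPM, 6.03-fold lower (5.64 to 6.46), while in Kupffer-gated cells it was at 482 against 347 CPM.

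Genes of the TGF-β list had 7 of 18 members at least 2-fold higher and 2 lower in NEVLPcty, with a median of 0.32 relative to all genes. Pmepa1, which sequesters SMAD proteins, was at 165 CPM in NEVLPcty, 17.2 in NEVLP2, 40.4 in CS and 5.2 in naive, a ratio of 9.59 (7.34 to 12.7) between the perfused livers. Smad7, the inhibitory SMAD, named here after its values were seen, was at 140, 31.8, 66.7 and 35.9 CPM, 4.4-fold higher (3.58 to 5.45). Skil, a co-repressor of SMADs, was at 246, 104, 83.4 and 63.6 CPM, 2.37-fold higher (2.09 to 2.68). The highest level of each of these 3 feedback genes was that of NEVLPcty, and all 3 were also higher in its Kupffer-gated cells, by 3.6, 3.71 and 1.49 times. Id2, an inhibitor of helix-loop-helix factors, was at 929 against 315 CPM, and Id1 of the same family at 219 against 445 CPM, 2.04-fold lower (1.88 to 2.22), so the list held genes on both sides.

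Receptors for the added cytokines were detected in all 4 libraries. Tgfbr1, the type I TGF-β receptor, was at 40.7 CPM in NEVLPcty, 7.3 in NEVLP2, 40.4 in CS and 27.4 in naive, and NEVLP2 was the lowest, 5.57-fold (3.65 to 8.86) under NEVLPcty. Tgfbr2 was at 15.3, 14.6, 28.3 and 19.2 CPM, Il10ra at 9.26, 8.47, 15 and 12.8 CPM and Il10rb at 33.6, 33.6, 54.6 and 43.7 CPM. For these 3 receptors the interval of the ratio of NEVLPcty to NEVLP2 included 1, from 0.714 to 1.56, from 0.657 to 1.84 and from 0.776 to 1.29. Genes of the IL-10 receptor and STAT3 list had 4 of 18 at least 2-fold lower and 0 higher in NEVLPcty, with a median of -0.20 relative to all genes. Socs3, a STAT3 target that restrains cytokine receptors, was at 29.2, 84.7, 2.92 and 2.13 CPM, 2.9-fold lower (2.33 to 3.61) in NEVLPcty than in NEVLP2.

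MHC class II genes, through which phagocytes present peptides to CD4 T cells, were higher in NEVLPcty for 7 of 8 measured, with a median of 1.02 relative to all genes. With size factors 3 of 8 passed 2-fold and 0 were lower, so the direction held and the count was smaller. RT1-Da, the rat DR α chain, was at 24227.8 CPM in NEVLPcty, 12059 in NEVLP2, 16335.2 in CS and 9093.7 in naive, a ratio of 2.01 (1.99 to 2.03). RT1-Db1 was at 25224.8, 11372.9, 18162.2 and 9437.1 CPM, RT1-Ba at 13269.9, 6094.4, 8992.1 and 5705.6 CPM and RT1-Bb at 17044.8, 8032.9, 12599.7 and 7793.6 CPM. All 4 genes followed the same order, with NEVLPcty highest, CS next, then NEVLP2 and naive. Cd74, the invariant chain that escorts class II, followed it too, at 37625.8, 19212.5, 28231.3 and 16071.7 CPM. Ciita, the transactivator of these genes, did not: it was at 52.9 CPM in NEVLPcty, 19.6 in NEVLP2, 61.7 in CS and 59.1 in naive. C1q-poor members alone gave 24975.6 CPM of RT1-Da in NEVLPcty and 11731 in NEVLP2, so the difference was as large without the C1q-rich cells. Conventional dendritic cell genes had 4 of 6 at least 2-fold higher and 2 lower in NEVLPcty, with a median of 1.38 relative to all genes. The 4 higher genes had only 30 to 127 counts in both libraries together, whereas Clec10a, one of the lower genes, had 4439. Summed over the list outside the gate, the order was the reverse, at 312.1 CPM in NEVLPcty and 1034.9 in NEVLP2 members. A UMI of Flt3, Zbtb46 or Ccr7 was found in 44 NEVLPcty and 9 NEVLP2 members. The part of these cells in the class II levels was not tested. Kupffer-gated cells held 11300.3, 7170.2, 5119 and 11674.4 CPM of RT1-Da, an order of libraries in which naive, not CS, stood beside NEVLPcty.

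The promoters of the 4 class II genes that carry this result are shown because they share a Y box, the element GATTGG, which in class II promoters is known as part of the module that the CIITA complex reads. The motif was chosen with the sequences in view. Each window is the 130 bases before the start site in RefSeq annotation of build GRCr8: RT1-Da at chr20:4515285-4515414 (plus strand), RT1-Db1 at chr20:4560163-4560292 (minus strand), RT1-Ba at chr20:4576927-4577056 (plus strand) and RT1-Bb at chr20:4604119-4604248 (minus strand). Capitals mark GATTGG or its reverse complement.
RT1-Da: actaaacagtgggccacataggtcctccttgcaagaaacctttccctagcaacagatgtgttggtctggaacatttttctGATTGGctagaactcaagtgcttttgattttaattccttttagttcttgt
RT1-Db1: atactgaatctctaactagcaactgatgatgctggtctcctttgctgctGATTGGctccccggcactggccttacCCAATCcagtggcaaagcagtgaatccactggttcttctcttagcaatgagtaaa
RT1-Ba: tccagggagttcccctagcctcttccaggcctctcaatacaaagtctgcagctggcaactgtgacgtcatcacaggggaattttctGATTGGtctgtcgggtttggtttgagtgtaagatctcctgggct
RT1-Bb: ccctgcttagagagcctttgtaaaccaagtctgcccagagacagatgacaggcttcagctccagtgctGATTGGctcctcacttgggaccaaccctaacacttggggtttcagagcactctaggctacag

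The Y box began 50 bases before the start site in RT1-Da, 81 and, on the opposite strand, 55 in RT1-Db1, 44 in RT1-Ba and 62 in RT1-Bb. Of the 10 class II list genes 8 had a promoter in the table, and 7 of these held GATTGG on either strand within the 300-base promoter window of the table, against 14.8% of all 33469 promoters. For the SMAD box CAGACA the numbers were 0 of 17 TGF-β list genes and 21.1% of all promoters. A list gene was counted if any of its promoters held the motif, whereas the share of all promoters counts each promoter, so the units are unlike. A match describes letters in a window, and binding was not measured.

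Genes furthest apart between NEVLPcty and NEVLP2 came from inside and outside the lists. Of those below, Nr4a2 is on the immediate early list, Cd2 on the T cell list and F3 on the coagulation list. Gem, a small GTPase, was at 299 CPM in NEVLPcty, 17.5 in NEVLP2, 20.4 in CS and 11.4 in naive. Nr4a2, an orphan nuclear receptor of the immediate early class, was at 180, 16.9, 160 and 35.9 CPM, and Cd2, an adhesion receptor of lymphocytes and some myeloid cells, at 289, 19, 96.3 and 67.2 CPM. Mycl, a MYC family factor, was at 75.8, 2.92, 41.3 and 31.5 CPM. Of these 4 genes only Gem stood apart in NEVLPcty alone; the other 3 were lowest in NEVLP2 and present in the unperfused livers. Lower in NEVLPcty were Lipg, endothelial lipase, at 0.975 CPM against 123 in NEVLP2, Slamf1, a self-ligand receptor, at 1.46 against 76.2, Slpi, a secreted protease inhibitor, at 178 against 4417, and Csf3, the neutrophil growth factor G-CSF, at 1.71 against 75. F3, tissue factor, and Lcn2, lipocalin 2, had 1 count each in NEVLPcty, 0.244 CPM, against 68.3 and 134 CPM in NEVLP2. Slpi was at 14186 CPM in C1q-rich and 2993.5 CPM in C1q-poor members of NEVLP2, and Lcn2 at 18.4 and 151 CPM.

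**Figure D4:**
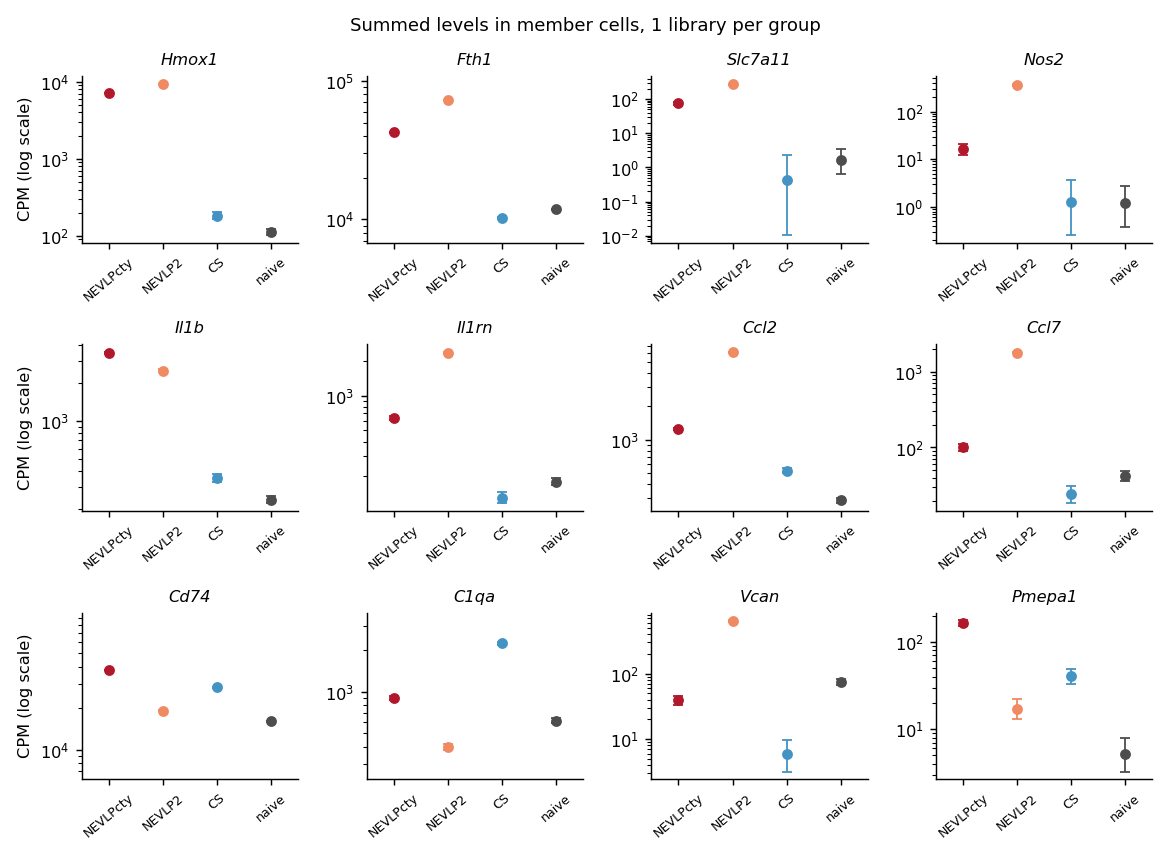
Level of 12 genes in the members of each library, as summed counts per 1000000 member UMIs (y axis, logarithmic). Each point is 1 library and error bars are exact Poisson 95% intervals for counting error; Nos2, Ccl2 and Ccl7 peak in NEVLP2, Pmepa1 and Cd74 in NEVLPcty, and C1qa in CS.

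Perfusion without cytokines was set against cold storage and against the naive liver, and since NEVLP2 stands in both comparisons, they are not independent. Members of NEVLP2 held far more Hmox1, ferritin, chemokine, IL-1 family and glycolysis mRNA than members of either unperfused liver, and less of interferon, non-classical monocyte and several signalling genes. Against CS, 9.1% of 8430 genes were at least 2-fold higher and 34.8% at least 2-fold lower in NEVLP2, with a median log2 ratio of -0.56. Against naive, 9.41% of 8831 genes were at least 2-fold higher and 35.5% at least 2-fold lower, with a median of -0.59. With size factors the shares were 19.4% and 19.6% against CS and 18.1% and 20.4% against naive, a shift of 0.63 and 0.58 (log2). Fth1 and Ftl1 alone reached 72666.7 and 22227.9 CPM in NEVLP2, and their part in these shifts was not tested. List medians are given relative to all genes.

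NRF2 and haem genes, which handle haem, iron and oxidants, had 11 of 15 at least 2-fold higher and 1 lower against CS, and 12 and 0 against naive, with medians of 2.51 and 2.96 relative to all genes. Hmox1, haem oxygenase 1, was at 7135.2 CPM in NEVLPcty, 9393.3 in NEVLP2, 184 in CS and 113 in naive, and NEVLP2 was 51-fold higher (46.4 to 56.1) than CS and 82.9-fold higher (75.8 to 90.9) than naive. Slc7a11, the cystine importer, was at 74.6, 269, 0.417 and 1.66 CPM, with 1 count in CS, and Txnrd1, thioredoxin reductase, at 390, 871, 80 and 111 CPM. Fth1, the heavy chain of ferritin, was at 42571, 72666.7, 10270.5 and 11819.3 CPM. Both perfused livers were above both unperfused livers for all 4 genes, and NEVLP2 was above NEVLPcty, by 1.32 times for Hmox1 and 3.61 times for Slc7a11. Hmox1 was at 16575.1, 13803, 1178.4 and 829 CPM in Kupffer-gated cells, and a Hmox1 UMI was found in 86%, 95.9%, 8.79% and 11.1% of members and 74.5%, 83.6%, 2.39% and 0.852% of hepatocyte-gated cells thinned to 2000 UMIs, so other cells of the perfused livers carried it too.

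Chemokines were the other group that stood out in NEVLP2. Of 11 CC chemokines, 8 were at least 2-fold higher and 1 lower against CS, and 8 and 1 against naive, with medians of 4.10 and 4.26 relative to all genes. Ccl4 was 33-fold higher (30.1 to 36.2) than in CS and 25.9-fold higher (24.3 to 27.5) than in naive, and Ccl7 was 73.6-fold (56.8 to 97) and 42.3-fold (36.4 to 49.3) higher. Ccl24, an eosinophil attractant, went the other way, at 5.36 CPM in NEVLPcty, 20.4 in NEVLP2, 569 in CS and 104 in naive. Ccl24 was thus 27.8-fold lower (21.9 to 35.9) in NEVLP2 than in CS, where C1q-rich members held 1437.5 CPM of it and C1q-poor members 134 CPM. Of 7 CXC chemokines, 4 were at least 2-fold higher and 0 lower against CS, and 6 and 0 against naive, while with size factors 7 were higher in both. Cxcl2, a neutrophil attractant, was at 1626.1, 2370.5, 1373.4 and 700 CPM and Cxcl1 at 544, 1073.7, 610 and 150 CPM in NEVLPcty, NEVLP2, CS and naive. All other cells held 5605 and 8593 CPM of Cxcl1 in NEVLPcty and NEVLP2, more than the members, and with cells thinned to 2000 UMIs 36.2% and 50.7% of members had a UMI of it, against 82.6% and 94.6% of hepatocyte-gated cells; the part of RNA from other cells in the member level was not tested. Il1b was 7.17-fold (6.68 to 7.71) and 10.7-fold (10 to 11.5) higher in NEVLP2 than in CS and naive, and Il1rn 17.8-fold (15.9 to 20) and 13-fold (12 to 14) higher.

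NF-kB feedback genes and targets had 13 of 20 at least 2-fold higher and 0 lower against CS, and 12 and 1 against naive, with medians of 2.05 and 1.83 relative to all genes. Sod2 was 19.2-fold (18.1 to 20.4) higher than in CS and 13.3-fold (12.8 to 13.9) higher than in naive. Nfkbia, the inhibitor IκBα, was at 1306.6 CPM in NEVLPcty, 1895.5 in NEVLP2, 958 in CS and 984 in naive, a ratio of 1.98 (1.89 to 2.08) to CS that stayed under 2-fold. Tnfaip3, the ubiquitin-editing inhibitor A20, was at 20.2, 35, 14.2 and 7.8 CPM. Both inhibitors were highest in NEVLP2. Promoters of Cxcl2, Cxcl1 and Nfkbia are shown because each holds a kB element, GGG and TTCC with any 3 bases between them, the kind of site that NF-kB dimers bind, close to the start site. The windows are the 130 bases before the start site in build GRCr8, from RefSeq: Cxcl2 at chr14:17467256-17467385 (minus strand), Cxcl1 at chr14:17479322-17479451 (minus strand) and Nfkbia at chr6:78597073-78597202 (minus strand). Capitals mark the element or its reverse complement.
Cxcl2: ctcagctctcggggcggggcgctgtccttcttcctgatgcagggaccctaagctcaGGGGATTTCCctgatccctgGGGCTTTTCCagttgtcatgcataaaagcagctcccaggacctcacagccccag
Cxcl1: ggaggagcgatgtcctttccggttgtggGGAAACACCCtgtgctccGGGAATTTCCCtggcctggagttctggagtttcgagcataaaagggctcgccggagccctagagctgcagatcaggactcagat
Nfkbia: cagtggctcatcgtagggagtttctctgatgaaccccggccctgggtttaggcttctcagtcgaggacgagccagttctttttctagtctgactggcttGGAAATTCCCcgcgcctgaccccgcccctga

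The element began 74 and 54 bases before the start site in Cxcl2, 102, 84 and 83 in Cxcl1, where the matches at 84 and 83 lie on opposite strands and overlap, and 31 in Nfkbia. On either strand within the 300-base window it was found in 10 of 17 NF-kB list genes with a promoter in the table, 5 of 7 CXC and 3 of 7 CC chemokine genes, against 5.37% of all promoters. The promoters shown were picked because they hold the element, and the NF-kB list was made of known NF-kB targets. These shares therefore describe the lists and support nothing. The antioxidant response core TGACNNNGC was found in 5 of 13 NRF2 list genes and 12.1% of all promoters. As for the Y box, list genes were counted by gene and the share of all promoters by promoter.

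Energy, surface and matrix genes differed as well. Glycolysis and hypoxia genes had 16 of 21 at least 2-fold higher and 0 lower against CS, and 15 of 22 and 0 against naive, with medians of 1.96 and 2.12 relative to all genes. Ldha, lactate dehydrogenase, was at 2198.9 CPM in NEVLPcty, 2309.5 in NEVLP2, 696 in CS and 724 in naive, and Slc2a1, the glucose transporter GLUT1, at 207, 438, 23.3 and 27.9 CPM. Aldoa, aldolase, was at 1849.2, 2414.3, 958 and 1144.3 CPM, and both perfused livers were above both unperfused ones for these 3 genes. Vcan, which encodes versican, was at 39.2, 631, 5.84 and 75.4 CPM, 108-fold higher (64.3 to 198) in NEVLP2 than in CS and 8.36-fold higher (7.43 to 9.44) than in naive. Thinned to 2000 UMIs, 1.95%, 31.7%, 1.1% and 6.19% of members had a Vcan UMI, against 0%, 0.256%, 0.199% and 0% of hepatocyte-gated cells; at full depth the member shares were 2.33%, 45%, 2.73% and 10.7%. Matrix remodelling genes had 7 of 15 higher and 5 lower against CS (3 lower with size factors), and 8 of 14 and 2 against naive; Thbs1, thrombospondin 1, was at 7.8, 96.6, 1.67 and 0 CPM, and Fn1 at 43.1, 291, 729 and 656 CPM. Coagulation genes had 8 of 15 higher and 3 lower against CS, and 9 of 14 and 1 against naive. F3 was at 0 in CS and naive and so at least 54.6-fold and at least 96.3-fold higher in NEVLP2, computed against 3 counts per library. Lcn2, also at 0 in both, was at least 107-fold and at least 188-fold higher by the same rule.

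Genes that were lower in NEVLP2 included patrolling monocyte, interferon and signalling genes. Of 9 non-classical monocyte genes measured, 7 were at least 2-fold lower and 0 higher against CS, and 7 and 0 against naive, with medians of -0.90 and -1.61 relative to all genes; with size factors 4 were lower against CS and 6 against naive. Spn, the sialoglycoprotein CD43, was at 282 CPM in NEVLPcty, 127 in NEVLP2, 309 in CS and 584 in naive, and Pou2f2, a lymphoid and myeloid transcription factor, at 270, 98.4, 272 and 353 CPM. Hes1, a Notch target, was at 40.2, 9.93, 95.5 and 140 CPM, and NEVLP2 was thus the lowest of the 4 for each of these genes. Since Cx3cr1 let only 8 NEVLP2 members into the gate, the makeup of the members and the level per cell cannot be told apart here. Type I interferon genes had 14 of 23 at least 2-fold lower and 1 higher against CS, and 13 and 1 against naive, with medians of -0.70 and -0.61 relative to all genes; with size factors 9 and 4 passed against CS, and 10 and 5 against naive. Mx1, an antiviral GTPase, was at 4.63, 21.6, 177 and 174 CPM, 8.18-fold lower (6.38 to 10.6) in NEVLP2 than in CS, and in Kupffer-gated cells at 56, 98.5, 348 and 251 CPM. Pycard, the inflammasome adaptor ASC, was at 93.3, 45.8, 726 and 606 CPM, 15.8-fold lower (13.4 to 18.8) than in CS and 13.2-fold lower (11.3 to 15.6) than in naive. Il16, a chemoattractant for CD4 cells, was at 3.65, 0.292, 56.7 and 63.8 CPM and Tlr3, the receptor for double-stranded RNA, at 6.09, 0.292, 45 and 30.3 CPM, with 1 count of each in NEVLP2. Dusp1, a MAP kinase phosphatase, was at 624, 376, 1435.5 and 2251.2 CPM and Fos at 667, 450, 1836.1 and 1144.5 CPM, so both immediate early genes were highest in unperfused livers. Immediate early genes as a list had 4 of 20 higher and 6 lower against CS and 5 and 9 against naive, with medians of -0.17 relative to all genes in both comparisons, close to the median of all genes; with size factors the counts turned to 5 and 4 against CS and 6 and 2 against naive.

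**Figure D5:**
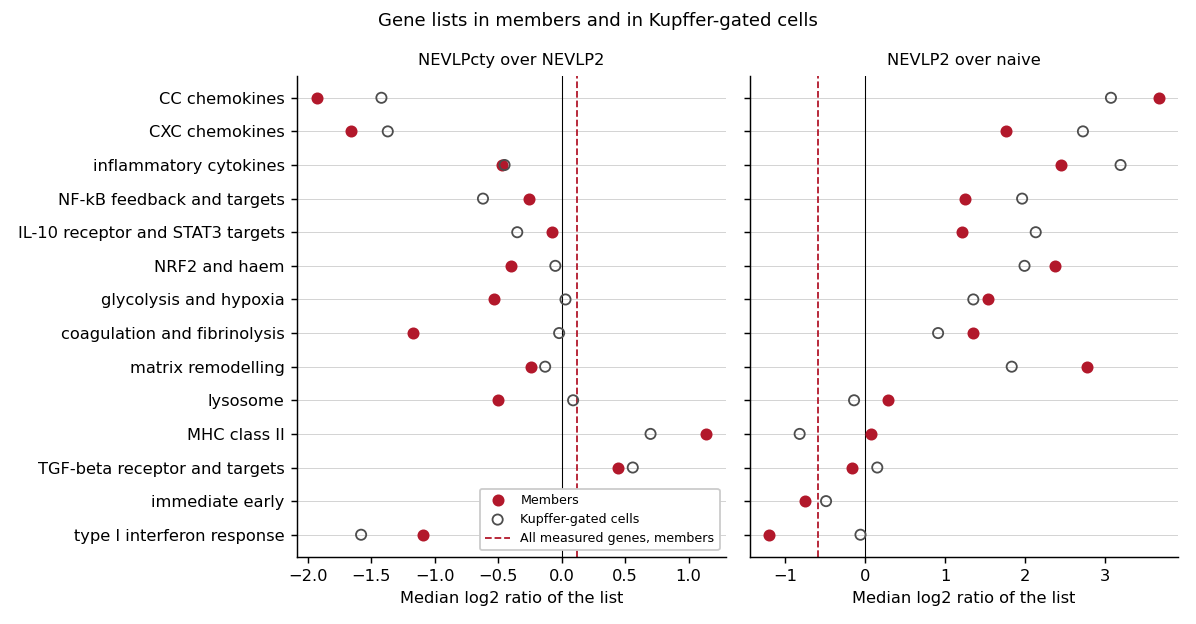
Median log2 ratio of 14 gene lists (x axis) in members (filled points) and in Kupffer-gated cells (open points), for NEVLPcty over NEVLP2 on the left and NEVLP2 over naive on the right; the dashed line is the median of all genes measured in members. CC chemokines lie lowest on the left and highest on the right in members, and MHC class II lies highest on the left.

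Cold storage against the naive liver gave the smallest differences. Of 8997 genes, 6.12% were at least 2-fold higher and 4.09% at least 2-fold lower in CS, with a median log2 ratio of 0.02, and size factors gave 5.67% and 4.43%. Members of CS held more macrophage mRNA than naive members, while few or no glycolysis and NRF2 genes were past 2-fold. Of 13 macrophage genes, 9 were at least 2-fold higher and 0 lower, with a median of 1.06 relative to all genes. C1qa was at 893 CPM in NEVLPcty, 398 in NEVLP2, 2234.2 in CS and 617 in naive, 3.62-fold higher (3.45 to 3.79) in CS than in naive, and in Kupffer-gated cells 1.24-fold higher. Mrc1, the mannose receptor, was at 89.7, 49, 147 and 69.8 CPM and Apoe, apolipoprotein E, at 332, 348, 606 and 296 CPM. The C1q-rich part was 32.8% of CS and 8.47% of naive members, which moves with these genes, and within C1q-poor members the list median was 0.57 on the log2 scale. Mmp12 was at 284 against 81.8 CPM in all members, 3.47-fold higher (3.05 to 3.97) in CS, but at 20.6 against 46.1 CPM in C1q-poor members alone. Glycolysis and hypoxia genes had 0 of 21 past 2-fold in either direction and NRF2 genes 1 of 14 higher and 0 lower.

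Classical monocyte genes had 4 of 8 at least 2-fold lower and 0 higher in CS, with a median of -1.20 relative to all genes, while Fn1, the list gene with the most counts, was at 729 CPM in CS against 656 in naive. Chemokines differed between CS and naive gene by gene, with 1 of 11 CC chemokines at least 2-fold higher and 2 lower and a median of -0.03 relative to all genes. Ccl3 was at 346 CPM in CS and 1493.3 in naive, 4.32-fold lower (4.01 to 4.65) in CS, and in Kupffer-gated cells 7.07-fold lower. Ccl24 was 5.46-fold higher (4.9 to 6.09), though lower in CS among members with a Cx3cr1 UMI, and Cxcl1 was 4.06-fold higher (3.7 to 4.47), at 610 against 150 CPM; Cxcl10 was 4-fold lower (3.08 to 5.25), at 27.5 against 110 CPM. A single cell held 41.4% of the Cxcl1 counts in naive and 17% in CS, so these sums rest on few cells. Ccl17, a ligand of CCR4, was at 74.6 CPM in CS and 219 in naive, 2.93-fold lower (2.5 to 3.46). Vcan was 12.9-fold lower (7.59 to 23.9) in CS, and Fcnb, a monocyte ficolin, 4.96-fold lower (4.4 to 5.61), at 124 against 616 CPM. S100a9, the partner of S100a8, was at 0.834 CPM in CS and 191 in naive, but 1 naive cell held 65.2% of its counts. Nr4a2 was 4.46-fold higher (3.69 to 5.42) in CS, and Pmepa1 7.77-fold higher (4.85 to 13), at 40.4 against 5.2 CPM.

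MHC class II had 0 of 8 genes past 2-fold and a median of 0.71 relative to all genes, with RT1-Da 1.8-fold (1.77 to 1.82) and RT1-Db1 1.92-fold (1.9 to 1.95) higher in CS. Kupffer-gated cells gave the opposite sign, with RT1-Da at 5119 CPM in CS against 11674.4 CPM in naive and a list median of -1.19 (log2). Endothelial list genes were at least 2-fold higher in CS for 6 of 6 measured, with a median of 3.74 relative to all genes. They were left out of the ranking by interval limits, as were hepatocyte, erythroid and stellate list genes. Among the genes that were ranked, those furthest above naive in CS were Fam167b, Igfbp7, Clec14a, Gpr182 and Tspan7. Of these, Clec14a and Gpr182 are known from endothelial cells. Igfbp7, an insulin-like growth factor binding protein, was at 62.4 CPM in NEVLPcty members, 24.8 in NEVLP2, 60 in CS and 0 in naive, and Clec14a at 26.8, 9.05, 34.2 and 0 CPM. Endothelial list genes, at 470.6 CPM in CS and 120.4 in naive members, moved with them, as they did in all other cells, at 5893.6 and 326.6 CPM, and their part in this result was not tested. Lower in CS were the haemoglobin gene Hba-a1, at 15.8 CPM against 1459.3, and Mrpl33, a mitochondrial ribosomal protein gene, at 40.8 against 214 CPM. Rpl30l1, a ribosomal protein L30-like gene whose reads a near-identical copy could share, was at 0 CPM in NEVLPcty, 0.292 in NEVLP2, 1.67 in CS and 54.9 in naive, and in Kupffer-gated cells at 0.207, 0.192, 0.492 and 40.1 CPM. It separated naive from the other 3 libraries in both cell types, and is reported as uncertain.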

How the data were processed

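Single-cell RNA of 4 livers was measured in 1 library each, with 10x Genomics chemistry. The deposited values are whole-number UMI counts per gene and barcode, made with Cell Ranger, version 2.1.1 per the submitters' processing notes and 6.0.0 per the file headers. The build aligned to was not given in the sources used here. The 22250 features were summed to 22118 symbols. Counts of the members of a library were summed and divided by the members' UMIs (CPM), with exact Poisson intervals; ratios had exact conditional binomial and shares exact binomial (Clopper-Pearson) intervals, all 95% and for counting error only. A gene was measured with at least 20 counts in the 2 libraries compared and called at 2-fold or more; a gene at 0 was set to 3 counts for a bound. Hepatocyte-gated cells had at least 10% of UMIs from hepatocyte genes and 0 of Ptprc. Shares after thinning use cells with at least 2000 UMIs. The procedure was tested on simulated counts. Scripts ran under scanpy 1.11.5, pandas 2.3.3, scipy 1.17.1, numpy 2.4.6, matplotlib 3.10.9 and Python 3.11.15.

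The members and gene lists were chosen with earlier results of these data known. Named genes were the gate genes and cytokine receptors, for each list and comparison up to 4 called genes per direction with the most counts, and per comparison the 8 genes per direction with the most extreme interval limits among genes with at least 50 counts in at least 10 cells; the choice among these, and genes outside them (Smad7, Nfkbia, Tnfaip3, Tnf and markers), was made after values were seen. The ranking by interval limits left out gate and mitochondrial genes and those of the hepatocyte, erythroid, endothelial and stellate lists. It also left out genes with a large part of their counts in a single cell of the higher library. Genes of the division by C1q were taken from those past 2-fold in the same direction in all 4 libraries. They were ranked by the smallest of the 4 ratios. Alternatives changed the cell filters, the gate, the scaling and the count minimum.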

Additional observations from a re-analysis of the deposited data

How the results depend on the processing

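With 1 library per liver group, animal, preparation and treatment cannot be told apart, and depth limits genes of few counts. No paired analysis was possible because each group has 1 library.

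The share of cells in the gate depended on depth and on the gate. Thinned to 2000 UMIs it was 0.252% in NEVLPcty, 0.212% in NEVLP2, 0.863% in CS and 3.53% in naive. With no Cx3cr1 or Itgam UMI required it was 3.82%, 5.44%, 2.65% and 15.1%. Without members bearing dendritic cell genes it was 1.83% in NEVLPcty, 1.34% in CS and 8.09% in naive, and without those bearing neutrophil genes 1.58% in NEVLP2 and 7.42% in naive. Naive was the highest under each of these settings. The percent of genes past 2-fold in CS over naive, 10.2%, was 5.35% with at least 100 counts and 17.1% with at least 5; in the other 3 comparisons it stayed within 1.5 times of 20.5%, 43.9% and 44.9%.

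Some log2 ratios changed sign; the cause was not tested. In C1q-poor members alone, NEVLPcty over NEVLP2 gave -0.30 for C1qa, -1.20 for C1qb, -0.99 for C1qc and 0.42 for Ccl24, NEVLP2 over CS gave 0.71 for Pmepa1 and 0.04 for Folr2, and CS over naive gave -1.16 for Mmp12 and -0.87 for Ms4a7. In members with a Cx3cr1 UMI, CS over naive gave -1.72 for Ccl24 and -0.79 for Slpi. Without neutrophil-marker members Fcnb was at 0.13 in NEVLPcty over NEVLP2, and after thinning at 0.27 in CS over naive. With no Cx3cr1 or Itgam UMI required, NEVLP2 over CS was at -1.39 for S100a8 and -2.29 for S100a9. Of 108 list medians, 27 moved with size factors and 13 in C1q-poor members. Alternatives on C1q-poor members, on Itgam-bearing members and without the Cx3cr1 or Itgam requirement were chosen after seeing the data. Restricting to Cx3cr1-bearing members or thinning was not run for comparisons with NEVLP2, which kept 8 and 14 members.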
